A study of Mus musculus with 167 samples.

Results

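The miR-23a/27a/24-2 cluster on chromosome 8 (a-cluster) and the miR-23b/27b/24-1 cluster on chromosome 13 (b-cluster) were represented by 6 mature miRNAs, mmu-miR-23a-3p, mmu-miR-23b-3p, mmu-miR-24-3p, mmu-miR-27a-3p, mmu-miR-27b-3p and mmu-miR-27b-5p, written without the mouse prefix mmu from here on. They were taken by name, 6 of 1915 miRNAs listed for every tissue. The reads came from mouse lung, heart and brain homogenates and from WBC and RBC fractions of blood, 167 libraries of 35 animals in 20 groups. The animals were C3H (C3Hf/Sed/Kam) or C57 (C57Bl/6) mice given whole thorax irradiation or sham irradiation, with tissue taken at month 4 (C3H) or month 6 (C57) after perfusion. The labels give no genotype beyond the strain. For lung, heart, brain and RBC, there were 8 sham and 7 irradiated C3H libraries and 15 sham and 5 irradiated C57 libraries. For WBC, there were 5 sham and 6 irradiated C3H libraries and 11 sham and 5 irradiated C57 libraries. All C3H mice were female, whereas the 15 C57 sham mice were 8 males and 7 females and 4 of the 5 irradiated C57 mice were males. Irradiated mice were those alive at the endpoint, and strain and month cannot be told apart. Ages are not given in the labels. The labels also carry a letter, A or B, without saying what it marks, and each group held both.

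Each cluster is copied from the genome as a common primary transcript, from which the hairpins are cut and trimmed to mature miRNAs of either arm (5p or 3p). A mature miRNA guides the silencing complex to messages that pair with its seed, bases 2 to 8 from its 5′ end, and represses them. The clusters are vertebrate paralogs. Their miRNAs are abundant in endothelial cells and have been studied in vessel growth (miR-23 and miR-27), in fat cell formation and heart muscle (miR-27), in survival of cardiac endothelium (miR-24) and in T cell responses.

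The mature sequences below show which members share a seed (capitals) and how close the paralogs are. They are RefSeq sequences on GRCm38.p6, for which 5 of the 6 members matched.
miR-23a-3p: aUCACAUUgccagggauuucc
miR-27a-3p: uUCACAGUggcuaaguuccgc
miR-27b-3p: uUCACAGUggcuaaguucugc
miR-24-3p: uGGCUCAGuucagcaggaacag
miR-27b-5p: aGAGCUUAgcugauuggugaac
miR-27a-3p and miR-27b-3p had the same seed, UCACAGU, and were identical at 20 of 21 positions, the difference being C19U with miR-27a-3p as reference and positions counted from the 5′ end. The seed of miR-23a-3p was UCACAUU, that of miR-24-3p GGCUCAG and that of miR-27b-5p GAGCUUA. miR-24-3p is released as the same sequence from both clusters, so its reads cannot be divided between them. How reads that match more than one place were counted is not stated, and reads trimmed before base 19 cannot separate miR-27a-3p from miR-27b-3p, which makes their division uncertain. miR-23b-3p was the member without a matched sequence. Whether the division of miR-23a-3p and miR-23b-3p has the same limit was therefore not checked.

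On GRCm38.p6, all 6 hairpins lie on the plus strand. Mir23a (chr8:84208518-84208592), Mir27a (chr8:84208672-84208758) and Mir24-2 (chr8:84208815-84208921) span 404 bases; Mir23a and Mir27a overlap no other annotated gene and Mir24-2 overlaps an exon of the long noncoding RNA Gm26532. Mir23b (chr13:63300484-63300557), Mir27b (chr13:63300712-63300784) and Mir24-1 (chr13:63301208-63301275) span 792 bases inside 2010111I01Rik, with Fancc on the opposite strand. Mir23b overlaps no exon, whereas Mir27b and Mir24-1 overlap exons of alternative 2010111I01Rik transcripts such as a nonsense-mediated decay transcript. miR-23a-3p is at chr8:84208563-84208583, miR-27a-3p at chr8:84208727-84208747, miR-27b-5p at chr13:63300718-63300739 and miR-27b-3p at chr13:63300760-63300780. miR-24-3p is at chr8:84208875-84208896 and at chr13:63301251-63301272.

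Total counts per library ran from 1794995 to 7865102. Levels are given as RPM, reads per 1000000 miRNA reads of the library. The 6 members together held 1.29 to 2.32% of lung reads, 1.39 to 3.26% of heart reads, 1.05 to 1.51% of brain reads, 0.0298 to 0.407% of WBC reads and 0.0170 to 0.0733% of RBC reads. Summed cardiac muscle markers were at 152407 RPM or more in every heart library but 1. That library, C3H irradiated heart replicate 3, held 50690 RPM of cardiac markers against 152407 to 246805 RPM in the other 6 of its group. The C3H heart values of the quantile fit over both letters are given with and without it, as are those within letter A that are printed, whereas those of other scalings and tools and the interaction term include it. The summed epithelial markers did not separate lung from every brain library, since they reached 41037 RPM in a C57 sham brain. The blood labels were less separate: the summed erythrocyte markers were 17913 to 106907 RPM in WBC and 28566 to 106323 RPM in RBC libraries, and the leukocyte markers 10623 to 33447 RPM in WBC and 8203 to 45244 RPM in RBC libraries.

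In sham mice the mean level of each member was higher in lung, heart and brain than in WBC and RBC, although the WBC ranges of miR-23a-3p, miR-24-3p and miR-27a-3p reached into those of organs (plot of levels in every library). miR-27b-3p was the most abundant member in all 3 organs. Its level in heart was 11357 ± 1950 RPM (SD, n = 23), in brain 7738 ± 620 RPM (n = 23) and in lung 7237 ± 726 RPM (n = 23). In WBC it was 134 ± 73.5 RPM (n = 16) and in RBC 39.1 ± 12.2 RPM (n = 23), so every organ library lay above every blood library. The brain and lung ranges, 6121 to 8864 and 5948 to 8374 RPM, overlapped.

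**Figure D1:**
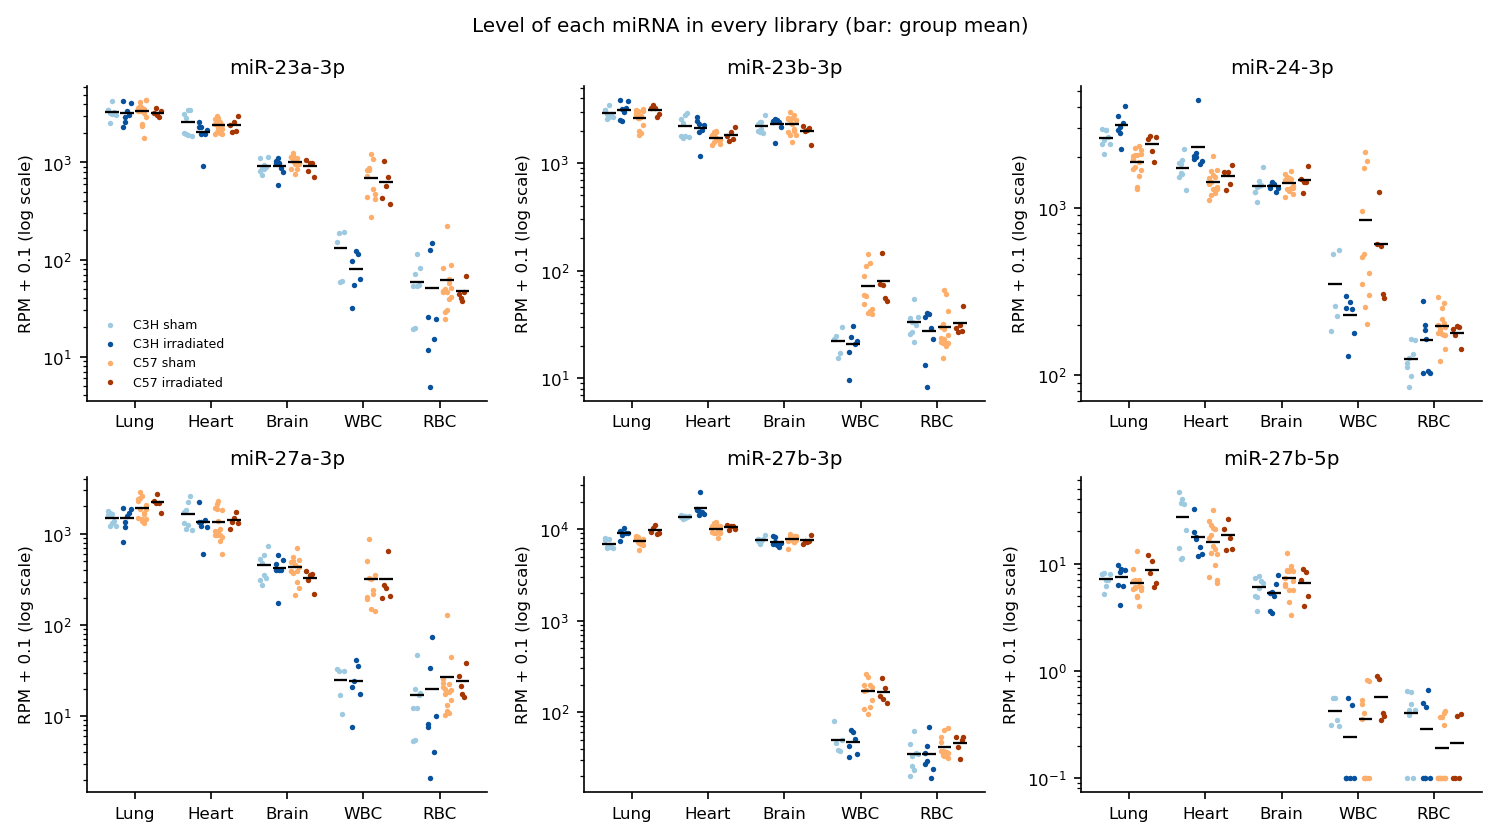
RPM plus 0.1 (log axis) of each of the 6 miRNAs in every library, by tissue, with points for libraries, colours for C3H and C57 sham and irradiated mice, and bars for group means. miR-27b-3p lies at 5948 RPM or above in every sham organ library, and miR-27b-5p lies under 1 RPM in every sham blood library.

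miR-23a-3p, from the a-cluster, was highest in lung at 3351 ± 643 RPM (n = 23), followed by heart at 2486 ± 503 RPM, brain at 983 ± 138 RPM, WBC at 522 ± 365 RPM (n = 16) and RBC at 60.2 ± 42.4 RPM. Its brain range (750 to 1252 RPM) and WBC range (58.8 to 1211 RPM) overlapped. miR-23b-3p, from the b-cluster, was ordered differently, with 2736 ± 416 RPM in lung, 2275 ± 369 RPM in brain and 1888 ± 388 RPM in heart, 3 ranges that overlapped. It was at 56.0 ± 38.1 RPM in WBC and 31.1 ± 13.4 RPM in RBC. That order was reversed in C3H sham mice, with means of 21.9 RPM in WBC and 33.2 RPM in RBC. Means in C57 sham mice were 43.6 and 35.2 RPM in females and 87.45 and 25.4 RPM in males.

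miR-27a-3p followed miR-23a-3p, its cluster partner, with 1777 ± 475 RPM in lung, 1444 ± 549 RPM in heart, 436 ± 134 RPM in brain, 228 ± 224 RPM in WBC and 23.2 ± 25.1 RPM in RBC. miR-24-3p, the product of both clusters, was the most even member, with 2130 ± 469 RPM in lung, 1534 ± 288 RPM in heart, 1383 ± 162 RPM in brain, 689 ± 645 RPM in WBC and 172 ± 52.4 RPM in RBC. Its WBC libraries spanned 183 to 2156 RPM and overlapped all 3 organs. miR-24-3p was also the most abundant member in blood on average.

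miR-27b-5p, the less abundant arm of the Mir27b hairpin, was at 19.8 ± 11.3 RPM in heart, 6.69 ± 1.81 RPM in lung and 6.81 ± 2.10 RPM in brain. In blood it was close to the counting limit, with a count in 11 of 16 WBC and 11 of 23 RBC sham libraries and means of 0.275 and 0.166 RPM.

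Tissues were compared in a single fit of sham libraries (limma with voom and quantile normalization, 524 miRNAs tested), with adjusted p under 0.05 as the threshold, as in all fits here, where adjusted p is the Benjamini-Hochberg value over every miRNA tested. Lung and heart differed for 3 of 6 members, while 65.5% of all miRNAs passed. miR-27b-3p (log2 difference lung minus heart −0.95, SE 0.06, adjusted p = 8.18e-27) and miR-27b-5p (−1.96, SE 0.26, adjusted p = 3.99e-11) were lower in lung. miR-27a-3p also passed (−0.36, SE 0.14, adjusted p = 0.0143), but not with TMM scaling (−0.15, adjusted p = 0.365), and with library size alone its sign turned (0.25, adjusted p = 0.157), so no direction is given for it. miR-23a-3p, miR-23b-3p and miR-24-3p differed by 0.08 to 0.10 and did not pass, whereas with library size alone they passed, higher in lung (0.42, 0.52 and 0.49, adjusted p = 0.00256, 1.65e-06 and 0.000644).

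Brain differed from lung and from heart for 6 of 6 members, in both cases with a background of 90.1% of all miRNAs, but with library size alone 4 passed against lung and 5 against heart, and with a strict filter on low counts, which removed miR-27b-5p, 4 of the other 5 passed in each (miR-23b-3p did not). The fitted differences were larger for the a-cluster members than for their paralogs. Lung minus brain was 3.4 for miR-23a-3p and 3.61 for miR-27a-3p, but 1.29 for miR-23b-3p and 0.42 for miR-27b-3p. Heart minus brain was 3.31, 3.97, 1.18 and 1.37 in the same order, whereas the median over all miRNAs was 0.52 for lung minus brain and 0.37 for heart minus brain. miR-24-3p lay between the 3p members of the clusters, with 2.04 and 1.96. miR-27b-5p gave 2.61 and 4.58. Library size scaling moved the medians over all miRNAs to −1.16 for lung minus brain, −1.95 for heart minus brain and 3.12 for brain minus WBC, and TMM moved them to −0.42, −0.80 and 1.78. With library size alone the a-cluster members kept their direction (lung minus brain 1.78 and 1.99), but miR-23b-3p was lower in heart than in brain (−0.22, adjusted p = 0.0359) and miR-27b-3p did not separate lung from brain (−0.11, adjusted p = 0.12). Under that scaling miR-27b-5p did not pass between lung and brain (0.06, adjusted p = 0.827), nor miR-24-3p between heart and brain (0.18, adjusted p = 0.199).

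Between brain and WBC, 5 of 6 members passed, with 91.8% of all miRNAs. miR-27b-3p (4.89) and miR-23b-3p (3.32) were higher in brain under all 3 scalings. For miR-23a-3p (brain minus WBC −1.10), miR-24-3p (−1.03) and miR-27a-3p (−0.81) the sign turned with TMM (0.48, 0.30 and 1.06) and with library size alone (1.82, 1.64 and 2.40), so no direction is given for them. WBC and RBC differed for 5 of 6 members, with 56.5% of all miRNAs. miR-23a-3p (WBC minus RBC 1.46), miR-27a-3p (1.19), miR-24-3p (0.89) and miR-27b-3p (0.27) were higher in WBC under all 3 scalings, although the miR-27b-3p call was lost without C3H sham WBC replicate 1 (0.21). miR-23b-3p was lower in the quantile fit (−0.58) but not with TMM (0.08) or library size (0.32). The tissue fits average the strains. In C3H sham mice miR-27a-3p overlapped between WBC (10.5 to 32.7 RPM) and RBC (5.24 to 46.3 RPM). C57 sham mice held 144 to 875 RPM in WBC and 10.1 to 129 RPM in RBC, without overlap. In bulk libraries such as these, fewer cells of a type and less RNA per cell cannot be told apart.

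The balance of the clusters was read from the paralog pairs, which does not depend on scaling. The a-cluster paralog held 54.9 ± 2.61% of miR-23a-3p plus miR-23b-3p reads in sham lung (n = 23) and 56.8 ± 2.85% in heart. In brain the share was 30.3 ± 2.74%, and its highest brain library (36.3%) was below the lowest of lung (48.6%) and of heart (51.7%). WBC lay at the other end at 88.6 ± 4.39% (n = 16), above every organ library. The RBC mean stood between at 63.3 ± 10.9%, but its libraries ran from 37.1 to 80.5% and overlapped those of lung, heart and WBC.

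For miR-27a-3p and miR-27b-3p the a-cluster share was lower but ordered WBC, RBC, lung, heart, brain from high to low. The means were 52.8 ± 16.8% in WBC, 32.7 ± 10.2% in RBC, 19.5 ± 3.24% in lung, 11.1 ± 3.20% in heart and 5.29 ± 1.38% in brain. Lung (15.2 to 27.03%) and heart (5.64 to 17.4%) overlapped slightly, and heart and brain (2.68 to 7.88%) also overlapped. RBC libraries (17.2 to 66.9%) overlapped those of lung, heart and WBC (21.9 to 83.3%). Within WBC the share separated the strains, with 21.9 to 40.7% in C3H sham and 51.6 to 83.3% in C57 sham libraries. The mean shares of both pairs were lowest in brain and highest in WBC, although for the miR-27 pair in C3H sham mice WBC (32.2 ± 7.72%) and RBC (30.1 ± 9.10%) overlapped.

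**Figure D2:**
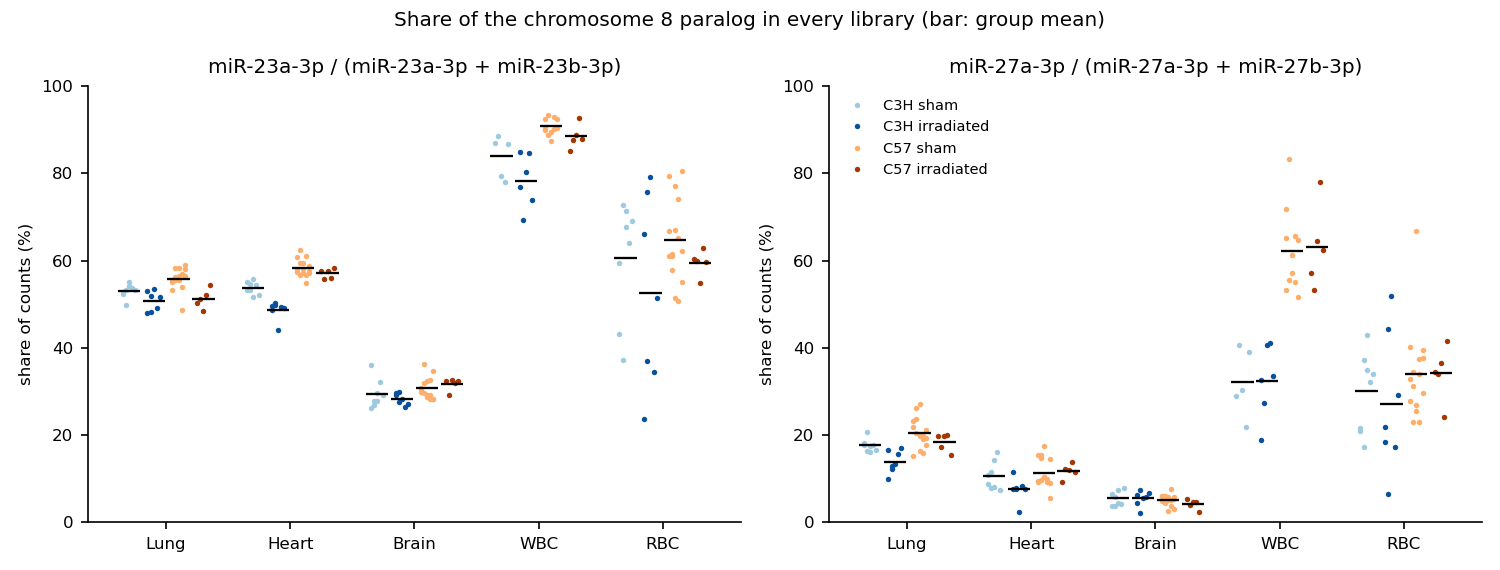
Share of reads (percent, from 0 to 100) of the chromosome 8 paralog within miR-23a-3p plus miR-23b-3p and within miR-27a-3p plus miR-27b-3p, in every library by tissue, with colours for strain and treatment and bars for group means. Sham brain lies at 30.3% and 5.29% on average and sham WBC at 88.6% and 52.8%.

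Irradiation was compared with sham in each tissue and strain. In C3H lung 1 of 6 members passed, against 33.4% of 350 miRNAs tested. This was miR-27b-3p. The 8 sham libraries held 6170, 6209, 6425, 6426, 6710, 7520, 7759 and 7994 RPM, and the 7 irradiated libraries held 7352, 8642, 9055, 9121, 9157, 9608 and 10204 RPM. Of the irradiated libraries, 6 were above every sham library and the lowest fell within the sham range. The RPM ratio was 1.31, and the fitted log2 difference 0.50 (SE 0.10, adjusted p = 0.000154), against a median of −0.08 over all miRNAs and −0.10 over the 6 members. The call rested on the scaling: the difference was 0.39 (adjusted p = 0.000789) with library size alone, but 0.09 (adjusted p = 0.371) with TMM, 0.09 (adjusted p = 0.358) in edgeR and 0.10 (adjusted p = 0.238) in DESeq2. Within letter B it was 0.64 (adjusted p = 0.000369) and within letter A 0.36 (adjusted p = 0.121).

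The other members in C3H lung did not pass. miR-23a-3p was at 3305 ± 478 RPM in sham (n = 8) and 3243 ± 733 RPM in irradiated mice (n = 7), with a fitted difference of −0.22 (adjusted p = 0.193), which passed with TMM (−0.34, adjusted p = 0.0230), edgeR (−0.34, adjusted p = 0.0214) and DESeq2 (−0.33, adjusted p = 0.00958). miR-24-3p was at 2602 ± 296 and 3105 ± 567 RPM, with 4 of 7 irradiated libraries above all 8 sham and a fitted difference of 0.03 (adjusted p = 0.883). The differences of miR-23b-3p (−0.02), miR-27a-3p (−0.17) and miR-27b-5p (−0.40) had adjusted p of 0.156 or more. For miR-27a-3p the sign differed by letter, with −0.69 (adjusted p = 0.0722) within letter A and 0.26 (adjusted p = 0.492) within letter B.

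In C57 lung, 2 of 6 members passed, both higher after irradiation, against 16.6% of miRNAs in either direction. miR-27b-3p was at 5948 RPM in the lowest, 7229 in the median and 8374 in the highest of the 15 sham libraries. The 5 irradiated libraries held 8754, 9179, 9360, 10368 and 11060 RPM. The groups did not overlap. The fitted difference was 0.54 (SE 0.10, adjusted p = 0.000141), and 0.27 with TMM (adjusted p = 0.0113), 0.27 in edgeR (adjusted p = 0.00993), 0.27 in DESeq2 (adjusted p = 0.000724) and 0.39 with library size (adjusted p = 0.00141). It was 0.52 among C57 males alone (adjusted p = 0.00634), 0.70 within letter A (adjusted p = 0.0358) and 0.44 within letter B (adjusted p = 0.00675).

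miR-23b-3p, the b-cluster partner, was at 1817 RPM in the lowest, 2759 in the median and 3155 in the highest C57 sham lung. The irradiated lungs held 2666, 2862, 3221, 3244 and 3495 RPM, 3 of them above all sham libraries. The fitted difference was 0.26 (SE 0.08, adjusted p = 0.0334), and it did not pass with TMM or edgeR (0.12 each), DESeq2 (0.12), library size (0.24, adjusted p = 0.165) or males alone (0.29, adjusted p = 0.120). It was also lost without C57 irradiated replicate 1, 2 or 3 (0.22 to 0.26). miR-24-3p was 1.27 times as high in irradiated lung by RPM (1878 ± 324 and 2387 ± 352 RPM) with a fitted difference of 0.33 (adjusted p = 0.0863), which passed with library size alone (0.36, adjusted p = 0.0487) and without C57 irradiated replicate 4 (0.43). miR-27a-3p (0.18) and miR-27b-5p (0.19) did not pass, nor did miR-23a-3p (0.07), whose sign turned with TMM (−0.15), edgeR (−0.16), DESeq2 (−0.16) and library size (−0.02). The median of the 6 members was 0.22 and of all miRNAs −0.05.

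miR-126a-3p, an endothelial miRNA that held 387107 ± 24012 RPM in C3H and 348095 ± 61960 RPM in C57 sham lung, was at 312158 ± 43603 and 309589 ± 30277 RPM after irradiation. Library size scaling moved the median over all miRNAs to 0.27 in C3H and 0.12 in C57 lung. The summed leukocyte markers were at 4007 ± 513 and 4307 ± 2102 RPM in C3H and C57 sham lung and at 4875 ± 1646 and 6312 ± 509 RPM in irradiated lung. Erythrocyte markers were at 559 ± 336 RPM in sham and 1274 ± 939 RPM in irradiated C3H lung and at 499.6 ± 508 and 240.4 ± 162 RPM in C57 lung. Cardiac muscle markers were at 5714 ± 893 and 3994 ± 896 RPM in C3H lung and at 5044 ± 1252 and 4925 ± 2170 RPM in C57 lung. The part of these in the lung results was not tested.

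**Figure D3:**
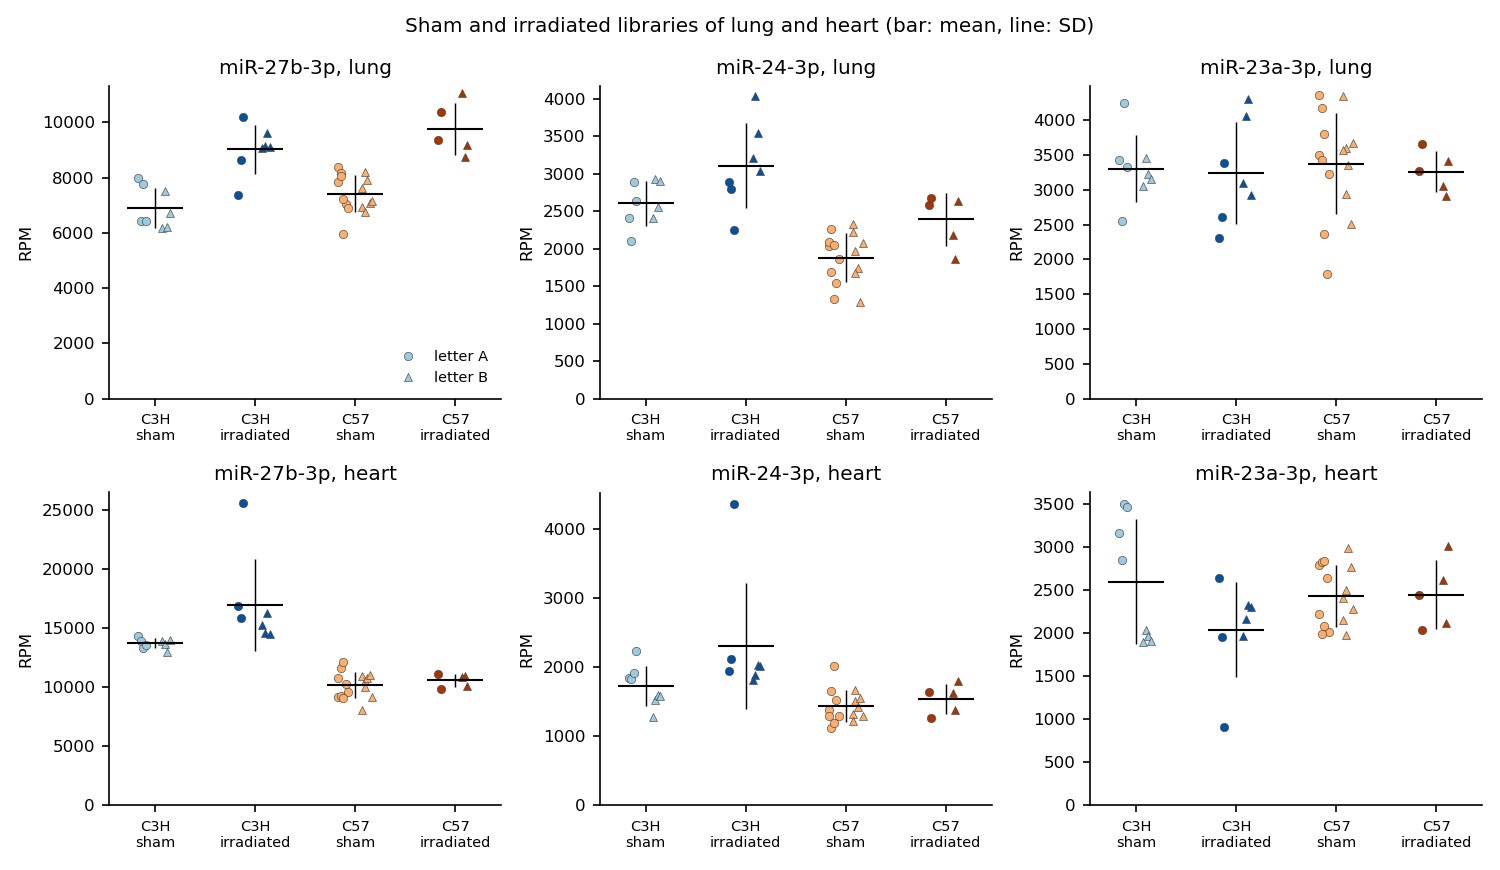
RPM of miR-27b-3p, miR-24-3p and miR-23a-3p (columns) in lung (top) and heart (bottom) by strain and treatment, with circles for letter A and triangles for letter B, bars for means and lines for SD. In C57 lung the irradiated libraries start at 8754 RPM for miR-27b-3p, above the highest sham library at 8374 RPM, and in C3H heart 1 irradiated library stands apart at 25561 RPM.

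In C3H heart, 1 of 6 members passed, against 16.7% of 312 miRNAs. miR-24-3p was at 1275, 1531, 1580, 1600, 1833, 1838, 1921 and 2239 RPM in sham libraries and at 1816, 1885, 1946, 2017, 2035, 2113 and 4373 RPM in irradiated libraries. The groups overlapped, and the highest value was replicate 3, the library low in cardiac markers. The fitted difference was 0.55 (SE 0.19, adjusted p = 0.0436), but 0.26 (adjusted p = 0.0734) without that library. With all libraries it passed with TMM (0.48, adjusted p = 0.0425), edgeR (0.65, adjusted p = 0.0121) and DESeq2 (0.65, adjusted p = 0.00636) and did not pass with library size alone (0.37, adjusted p = 0.0846). The call was also lost without any 1 of 7 of the 8 sham libraries (all but replicate 4), at differences of 0.53 to 0.56. Within letters the difference did not pass (letter A 0.88, adjusted p = 0.0727; letter B 0.31, adjusted p = 0.297), and within letter A it was 0.21 (adjusted p = 0.452) without replicate 3, which is of that letter.

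miR-27b-3p in C3H heart was at 12927 to 14282 RPM in the 8 sham libraries and at 14443, 14568, 15260, 15783, 16240, 16795 and 25561 RPM in the 7 irradiated libraries, all above every sham library. The quantile fit gave 0.12 (adjusted p = 0.420), or 0.10 (adjusted p = 0.529) without replicate 3. The difference passed with TMM (0.40, adjusted p = 0.0425), edgeR (0.47, adjusted p = 0.0251), DESeq2 (0.47, adjusted p = 0.0166) and library size (0.29, adjusted p = 0.0445), so the call was set by scaling here too. miR-126a-3p was at 304737 ± 26206 RPM in sham and 352182 ± 33860 RPM in irradiated C3H heart, and the summed cardiac muscle markers were at 250868 ± 25086 and 191910 ± 69624 RPM. Markers of other cells were also lower on average after irradiation, with the leukocyte sum at 2781 ± 3107 and 1478 ± 704 RPM, the lymphocyte miRNA miR-150-5p at 319.6 ± 77.5 and 103.5 ± 29.0 RPM, the erythrocyte sum at 1276 ± 816 and 668.5 ± 506 RPM and the epithelial sum at 279 ± 286 and 136.5 ± 74.4 RPM. The sham leukocyte and epithelial means took in values of up to 10253 and 941.5 RPM, far above those means. The part of these markers in the C3H heart results was not tested.

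miR-23a-3p in C3H heart was at 2594 ± 721 RPM in sham and 2035 ± 549 RPM in irradiated mice, with a fitted difference of −0.30 (adjusted p = 0.0972), or −0.19 (adjusted p = 0.263) without replicate 3. Its sham libraries divided by letter, with 2843 to 3499 RPM in letter A and 1893 to 2033 RPM in letter B, and the difference was −0.70 (adjusted p = 0.0246) within letter A and 0.03 (adjusted p = 0.934) within letter B. Without replicate 3 the letter A difference was −0.46 and did not pass (adjusted p = 0.104). miR-27a-3p (−0.18), miR-23b-3p (0.11) and miR-27b-5p (−0.34) did not pass, nor did they without replicate 3 (−0.0086, 0.18 and −0.33). Over the 6 members the median was −0.04 and over all miRNAs −0.03.

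In C57 heart 0 of 6 members passed with limma, edgeR or DESeq2, against 3.53% of miRNAs, and 0 had an unadjusted p under 0.05. miR-27b-3p was at 10124 ± 1099 RPM in sham (n = 15) and 10540 ± 555 RPM in irradiated mice (n = 5), a fitted difference of 0.08. The differences of all 6 members lay between −0.07 and 0.21. Among C57 males alone, 0 passed, and miR-27a-3p was −0.28 (0.06 with both sexes) and miR-23a-3p −0.06 (0.11 with both sexes).

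**Figure D4:**
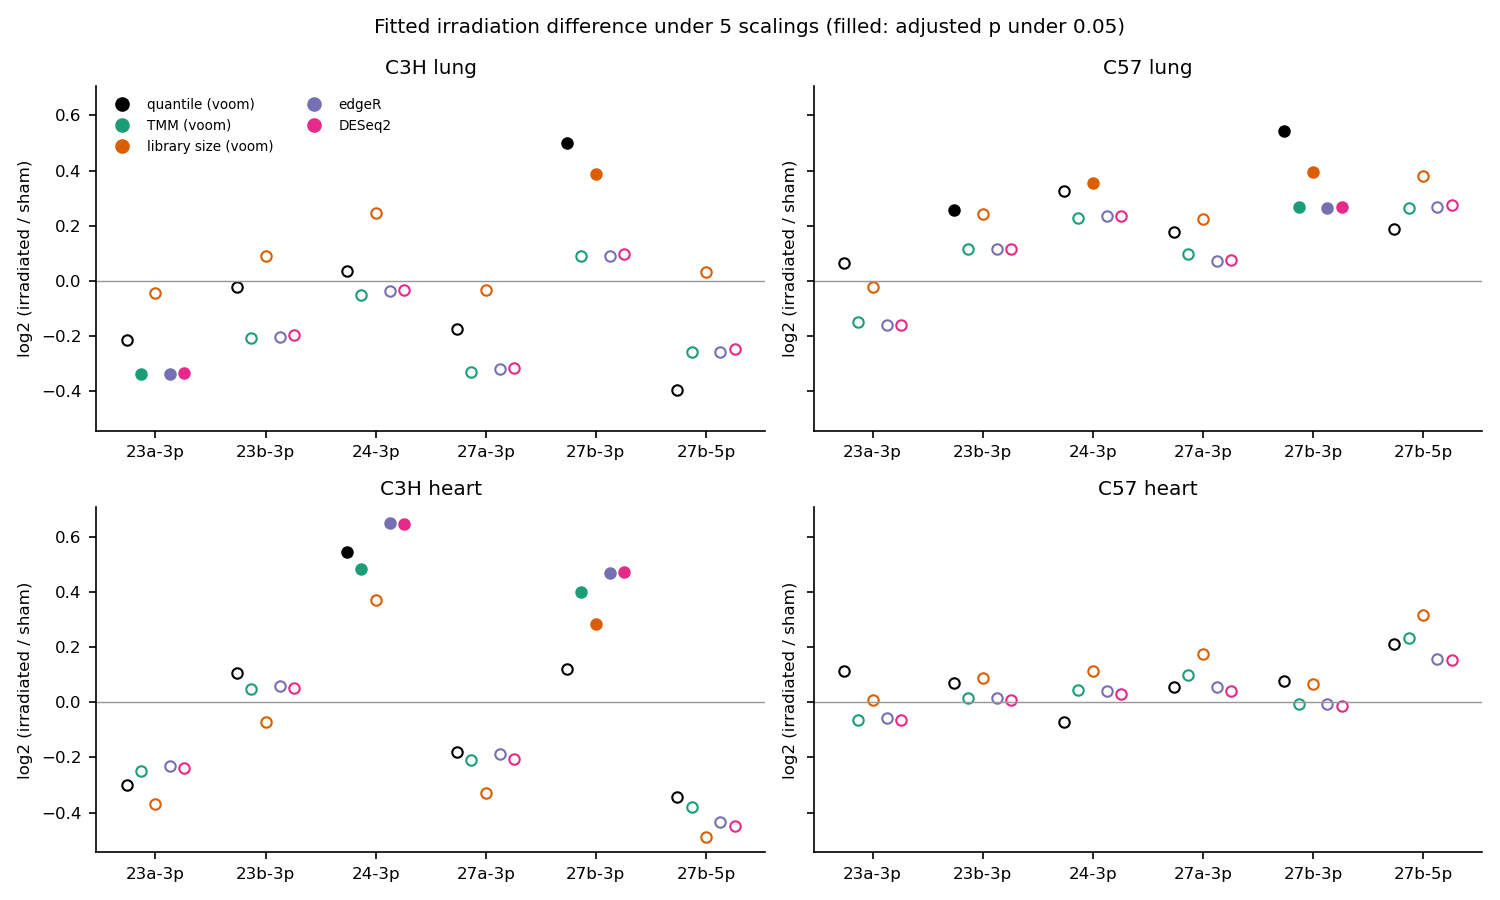
Fitted log2 difference of irradiated against sham for each member in C3H and C57 lung and heart under 5 ways of scaling or testing, with filled points for an adjusted p under 0.05. miR-27b-3p passes in C57 lung under all 5, whereas in C3H lung it passes under 2 and in C3H heart under 4.

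Brain, which lay outside the thorax, showed 0 of 6 members passing in C3H and in C57, where 0.0% of 433 miRNAs passed in either strain (9 and 53 miRNAs had an unadjusted p under 0.05, none of them a member). edgeR and DESeq2 also gave 0 members. miR-27b-3p was at 7616 ± 524 and 7277 ± 730 RPM in C3H sham and irradiated brain, and at 7803 ± 674 and 7526 ± 707 RPM in C57. Its fitted difference was −0.07 (SE 0.07) in C3H and −0.00061 (SE 0.07) in C57. miR-23b-3p in C57 brain had the lowest unadjusted p of the members, with a difference of −0.30 (adjusted p = 0.420) and all 5 irradiated libraries below the sham median.

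In WBC, 0 of 5 members tested passed in either strain, against 0.0% of 291 miRNAs in C3H and 0.0% in C57 (20 and 12 at an unadjusted p under 0.05). edgeR and DESeq2 gave 0 members as well. The largest member difference was 0.52 (SE 0.17, adjusted p = 0.497) for miR-23b-3p in C57, the only one with an unadjusted p under 0.05. miR-27b-5p was below the filter in WBC and RBC. In RBC, 0 of 5 members passed, against 0.0% of 229 miRNAs in C3H and 0.0% in C57 (43 and 14 unadjusted). miR-24-3p in C3H RBC was at 125 ± 28.1 RPM in sham and 162 ± 64.8 RPM in irradiated mice with a difference of 0.66 (SE 0.30, adjusted p = 0.248), and edgeR and DESeq2 each called 1 member there.

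The strains' irradiation differences were compared by an interaction term. No member passed in any tissue, against 0.286% of miRNAs in lung and 0.0% in heart, brain, WBC and RBC. At an unadjusted p under 0.05 there was 1 member in lung, 2 in heart and 0 in each other tissue, and edgeR and DESeq2 gave 0 members. Strain and month cannot be told apart in this term.

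The paralog ratios were then compared between irradiated and sham mice by an exact two-sided permutation test of the mean log2 ratio, with p adjusted over 30 comparisons (3 ratios, 10 tissue and strain pairs). miR-23a-3p relative to miR-23b-3p was lower in irradiated mice in 9 of 10 comparisons and passed in 2. In C3H heart, the miR-23a-3p share was 51.7, 52.0, 53.3, 53.3, 54.5, 54.6, 55.1 and 55.9% in sham libraries and 44.0, 48.7, 49.2, 49.3, 49.5, 49.8 and 50.3% in irradiated libraries. The 7 irradiated libraries were below all 8 sham libraries, a log2 difference of −0.30 (exact p = 0.000155, the smallest this design can give, adjusted p = 0.00466). Letter A alone, replicate 3 included, gave −0.41 and letter B alone −0.19, and the difference without replicate 3 was −0.25 (exact permutation test, adjusted p = 0.01998).

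In C57 lung the miR-23a-3p share was 48.6% in the lowest, 56.2% in the median and 59.1% in the highest of 15 sham libraries, and 48.4, 50.4, 51.2, 52.2 and 54.4% in the 5 irradiated libraries. All irradiated libraries were below the sham median and 1 was below every sham library. The log2 difference was −0.26 (exact p = 0.00310, adjusted p = 0.0310). It was −0.24 for letter A libraries, −0.30 for those of letter B and −0.28 (adjusted p = 0.121 by the exact permutation test) among males alone. The call was lost without irradiated replicate 1, 2, 3 or 4 (−0.28 to −0.22). In C3H lung it was −0.13 (exact p = 0.0398, adjusted p = 0.239). The difference in C57 heart was −0.08 (exact permutation test, adjusted p = 0.432).

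miR-27a-3p relative to miR-27b-3p was lower in irradiated mice in 6 of 10 comparisons and passed in 1. This was C3H lung, where the miR-27a-3p share was 16.2, 16.3, 16.6, 17.6, 17.6, 17.9, 18.2 and 20.8% in sham and 9.999, 12.2, 12.9, 13.3, 15.6, 16.6 and 17.0% in irradiated libraries. Of 7 irradiated libraries, 5 were below all sham libraries. The log2 difference was −0.42 (exact p = 0.00171, adjusted p = 0.0256), and it was −0.78 for letter A libraries against −0.14 for letter B libraries, a gap that was not tested. The call was lost without sham replicate 1, 2, 3, 4 or 6 (−0.42 to −0.38). In C3H heart the difference was −0.61 (exact permutation test, adjusted p = 0.278) with replicate 3 and −0.33 (adjusted p = 0.371) without it, and in C57 lung −0.17 (exact permutation test, adjusted p = 0.562). By letter the C3H heart difference was −1.225 for letter A, replicate 3 included, and −0.05 for letter B.

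The arms of the Mir27b hairpin were compared in the same way. miR-27b-3p exceeded miR-27b-5p by 9.90 ± 0.24 log2 units in C3H sham lung and by 9.19 ± 0.85 in C3H sham heart. In the organs 0 of 6 comparisons passed with irradiation, and 1 had an unadjusted p under 0.05, C3H lung with a difference of 0.37 (exact p = 0.0272, adjusted p = 0.204). In blood, where miR-27b-5p was close to 0 counts, the ratio depends on the added 0.5 and on depth and does not measure the arms, although those 4 comparisons remained among the 30 of the adjustment.

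Strains were compared in female sham mice, C57 minus C3H, with month 6 set against month 4. The widest differences were in WBC, where 2 of 5 members tested passed, both higher in C57, against 22.3% of 341 miRNAs in either direction. Both came from the a-cluster. miR-27a-3p was at 10.5, 16.9, 31.3, 31.4 and 32.7 RPM in the 5 C3H libraries and at 144, 151, 205 and 219 RPM in the 4 C57 female libraries, with no overlap. The fitted difference was 2.31 (SE 0.38, adjusted p = 0.000129). miR-23a-3p was at 58.8, 60.2, 153, 190 and 194 RPM in C3H and at 274, 420, 438 and 539 RPM in C57 females, a difference of 1.20 (SE 0.26, adjusted p = 0.00142) and again with no overlap.

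Both differences passed under all 4 other scalings or tools and the group ranges stayed apart within each letter (miR-27a-3p letter A 16.9 to 32.7 against 151 to 219 RPM, letter B 10.5 to 31.3 against 144 to 205 RPM). The b-cluster partners did not pass in the fit, with 0.16 (adjusted p = 0.619) for miR-23b-3p and 0.48 (adjusted p = 0.167) for miR-27b-3p. Their RPM did not overlap either, with miR-23b-3p at 15.3 to 29.8 RPM in C3H and 39.8 to 48.6 RPM in C57 females, and miR-27b-3p at 37.5 to 79.7 and 95.3 to 135 RPM. miR-27b-3p passed in DESeq2 (0.59, adjusted p = 0.0431), and with library size alone both passed (miR-23b-3p 1.03, adjusted p = 0.0381; miR-27b-3p 1.22, adjusted p = 0.00186), a scaling that put the median over all miRNAs at 0.75. miR-24-3p was at 350 ± 177 RPM in C3H and 277 ± 63.8 RPM in C57 females (−0.72, adjusted p = 0.267). miR-223-3p, a myeloid miRNA, was at 303 ± 192 RPM in C3H sham and at 1481 ± 1226 RPM in all C57 sham WBC libraries, males and females. In the 4 C57 females alone it was at 390, 484, 506 and 600.5 RPM, within the C3H range of 154 to 626 RPM. Over C3H sham and all C57 sham WBC libraries, the summed leukocyte markers were at 19917 ± 2899 and 24400 ± 5755 RPM and the erythrocyte markers at 37772 ± 6069 and 52722 ± 25822 RPM. Of the other marker sets, endothelial markers were at 1500 ± 909 and 2652 ± 1680 RPM, mesenchymal markers at 63.8 ± 46.5 and 134 ± 41.2 RPM, brain markers at 717 ± 508 and 2421 ± 1558 RPM, cardiac muscle markers at 12.7 ± 6.40 and 21.9 ± 6.68 RPM and epithelial markers at 324 ± 79.9 and 312 ± 64.3 RPM. Their part in these differences was not tested.

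**Figure D5:**
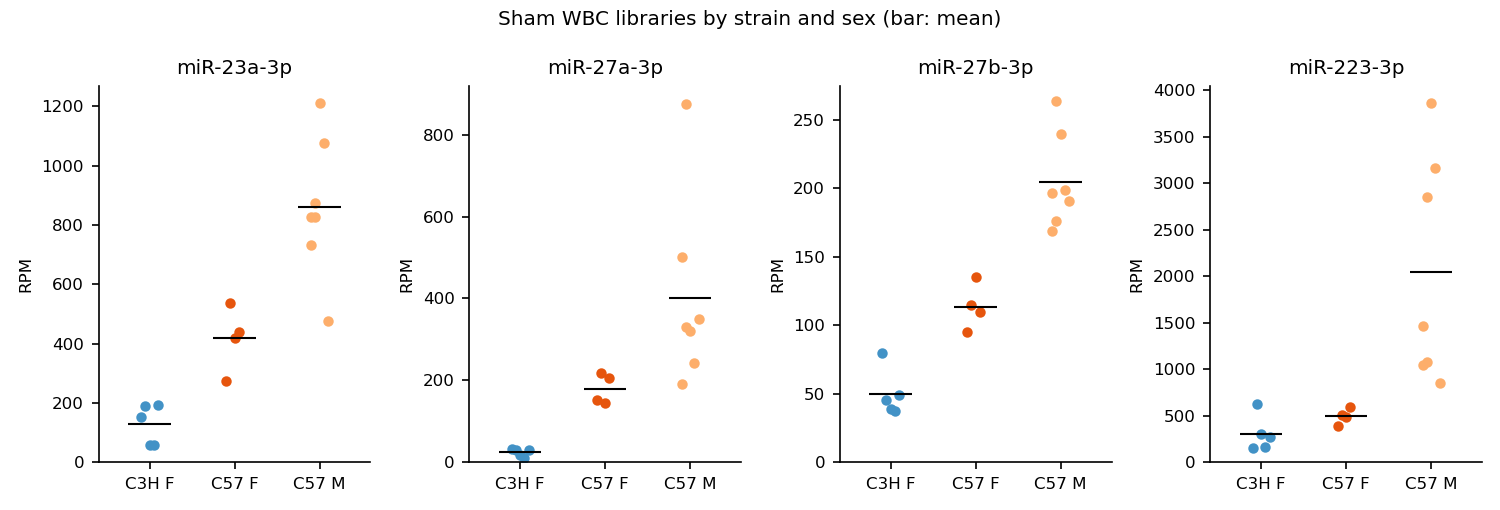
RPM of miR-23a-3p, miR-27a-3p, miR-27b-3p and the myeloid miR-223-3p in sham WBC libraries of C3H females (n = 5), C57 females (n = 4) and C57 males (n = 7), with points for libraries and bars for means. For miR-23a-3p and miR-27a-3p the highest C3H libraries (194 and 32.7 RPM) are below the lowest C57 female libraries (274 and 144 RPM).

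In heart, 3 of 6 members passed, all lower in C57 females, against 31.6% of 367 miRNAs in either direction. These were the miR-27 products, whereas with library size alone miR-23b-3p (−0.44, adjusted p = 0.0187) and miR-24-3p (−0.41, adjusted p = 0.0348) passed as well. That scaling put the median over all miRNAs at −0.36. miR-27b-3p ranged from 12927 to 14282 RPM, median 13723, in the 8 C3H libraries and from 8017 to 10024 RPM, median 9108, in the 7 C57 female libraries, which did not overlap (−0.55, SE 0.09, adjusted p = 3.34e-05). This difference lost significance with TMM (−0.22, adjusted p = 0.251), edgeR (−0.24, adjusted p = 0.227) and DESeq2 (−0.33, adjusted p = 0.0781). miR-27a-3p (1650 ± 550 and 904 ± 151 RPM, −0.71, adjusted p = 0.0183) and miR-27b-5p (26.9 ± 14.4 and 10.1 ± 3.36 RPM, −0.77, adjusted p = 0.0128) passed with TMM, library size, edgeR and DESeq2 as well, although the miR-27a-3p call was lost without C57 sham heart replicate 15 (−0.59). Both varied by letter. Mean miR-27a-3p was 2101 RPM in C3H and 955 RPM in C57 females for letter A, and 1198 and 837 RPM for letter B, without overlap in either. Mean miR-27b-5p was 39.8 and 8.97 RPM for letter A, without overlap, but 14.1 and 11.6 RPM for letter B, where the ranges (10.98 to 20.4 and 6.87 to 14.5 RPM) overlapped. In C3H sham and all C57 sham hearts, males and females, the erythrocyte markers were at 1276 ± 816 and 686.5 ± 283 RPM, the leukocyte markers at 2781 ± 3107 and 1691 ± 532 RPM and the mesenchymal markers at 58240 ± 13939 and 45468 ± 6786 RPM. The C3H leukocyte mean took in a value of 10253 RPM. In C3H and C57 females alone, miR-451a was at 158 to 882 and 36.5 to 99.95 RPM, and miR-223-3p at 113 to 562 and 96.9 to 191 RPM. The part of these markers in the heart differences was not tested.

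miR-24-3p was the single strain call in lung (1 of 6, background 14.4% of 397) and in RBC (1 of 5, background 18.3% of 278), with opposite signs. In lung it was lower in C57 (2602 ± 296 RPM in C3H, n = 8, 1968 ± 238 RPM in C57 females, n = 7; −0.41, adjusted p = 0.0314), a call lost without C3H sham replicate 7 or 8 or C57 sham replicate 10, 11, 13 or 15 (−0.41 to −0.36). The epithelial markers were at 16871 ± 3373 RPM in C3H sham and 27927 ± 6583 RPM in all C57 sham lungs, and their part in this difference was not tested. In RBC it was higher in C57 (125 ± 28.1 and 212 ± 56.2 RPM; 0.97, SE 0.29, adjusted p = 0.0166). In brain 0 of 6 members passed with limma, edgeR or DESeq2, against 15.0% of miRNAs, with 0 at an unadjusted p under 0.05.

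Sexes were compared in C57 sham mice, females minus males. In heart, 3 of 6 members passed, with fitted values lower in females, against 34.9% of miRNAs in either direction. miR-27a-3p was at 599 to 1068 RPM, median 963, in 7 females and at 1082 to 2317 RPM, median 1862, in 8 males (−0.90, SE 0.22, adjusted p = 0.00320), without overlap. miR-27b-5p was at 10.1 ± 3.36 and 21.1 ± 5.65 RPM (−0.59, adjusted p = 0.0452), a call lost when any of 10 of the 15 libraries was left out (C57 sham replicates 1, 2, 3, 4, 6, 8, 9, 10, 11 and 15; −0.59 to −0.50). With all libraries it passed with TMM (−0.69, adjusted p = 0.0259), library size (−1.065, adjusted p = 0.00783), edgeR (−0.66, adjusted p = 0.0269) and DESeq2 (−0.76, adjusted p = 0.00760). For miR-27b-3p (8017 to 10024 and 10211 to 12065 RPM, without overlap) the fitted −0.27 (adjusted p = 0.0230) was −0.26 with library size (adjusted p = 0.0290) but turned to 0.12 with TMM, 0.11 in edgeR and 0.02 in DESeq2, so no direction can be given, and the call was lost without C57 sham replicate 10 (−0.25) or 14 (−0.22). miR-23a-3p was at 2098 ± 117 RPM in females and 2716 ± 193 RPM in males and did not pass (−0.27, adjusted p = 0.0724), although the RPM ranges, 1975 to 2273 and 2403 to 2987, did not overlap. Library size scaling, which like RPM follows the share of reads, put the median over all miRNAs at −0.31. In the same hearts miR-223-3p was at 96.9 to 191 RPM in females and 194.5 to 464 RPM in males. The erythrocyte miRNA miR-451a was at 36.5 to 99.95 and 110 to 393 RPM, whereas the miR-126a-3p ranges overlapped. The part of these in the sex differences was not tested.

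Elsewhere 0 members passed between sexes in the quantile fit, against 6.05% of miRNAs in lung, 21.3% in brain, 11.1% in WBC and 14.4% in RBC. At an unadjusted p under 0.05 there were 0 members in lung and 1 in each of brain, WBC and RBC. In WBC, miR-24-3p was at 277 ± 63.8 RPM in 4 females and 1166 ± 738 RPM in 7 males (−1.20, SE 0.43, adjusted p = 0.0732), which passed without male replicate 5, 6 or 7 (−1.37 to −1.35), with TMM (−1.26, adjusted p = 0.0417), library size (−1.81, adjusted p = 0.0111), edgeR (−1.42, adjusted p = 0.0320) and DESeq2 (−1.58, adjusted p = 0.00504). In these WBC libraries miR-223-3p was at 390 to 600.5 RPM in females and 852 to 3860 RPM in males, whereas the miR-451a ranges overlapped. Their part in the miR-24-3p difference was not tested. edgeR and DESeq2 gave 0 members in lung, brain and RBC.

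Other mature products came from the remaining arms of these hairpins and from the hairpins Mir3074-1 and Mir3074-2 on the opposite strand. The following sequences show the a-cluster counterpart of miR-27b-5p and the product of the strand opposite to miR-24, with seeds in capitals.
miR-27a-5p: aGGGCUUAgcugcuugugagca
miR-3074-5p: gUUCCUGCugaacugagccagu
miR-27a-5p was at 67.9 ± 15.1 RPM in sham lung, 38.6 ± 12.1 RPM in heart and 13.3 ± 3.51 RPM in brain, above miR-27b-5p in each, although miR-27b-3p exceeded miR-27a-3p there. miR-24-2-5p, from the a-cluster, was at 7.05 ± 8.07 RPM in lung and 16.5 ± 19.9 RPM in heart, while miR-24-1-5p, from the b-cluster, was at 0.212 ± 0.249 and 1.02 ± 1.21 RPM. miR-23a-5p and miR-23b-5p were under 1 RPM on average in every tissue. Between C57 sham females and males in heart, the fitted difference was 1.12 (adjusted p = 0.00157) for miR-27a-5p, of opposite sign to that of miR-27a-3p, and −2.73 (adjusted p = 0.00652) for miR-24-2-5p.

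miR-3074-5p, unlike the members, had its highest levels in blood. It was at 7.29 ± 4.74 RPM in sham WBC and 15.0 ± 8.73 RPM in RBC, with a count in each of those libraries, but had a count in 1 of 23 lung, 1 of 23 heart and 2 of 23 brain libraries. miR-3074-1-3p was likewise at 4.63 ± 2.09 RPM in WBC and 8.40 ± 2.79 RPM in RBC and under 1 RPM on average in each organ. miR-3074-2-3p had no count in any sham library. These low values carry counting error beside the spread between animals, and where a library has 0 counts a low level remains possible.

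The pattern of each member over the 20 group means (log2 of mean RPM plus 1) was compared with that of 391 miRNAs, members and other products of their hairpins left out, that reached 10 RPM in at least 1 group. These correlations describe tissue differences, and groups of 1 tissue share their tissue. Among these 391, miR-23a-3p was closest to miR-152-3p (r = 0.991), miR-28a-5p (r = 0.990) and miR-574-3p (r = 0.964), and miR-27a-3p to miR-28a-5p (r = 0.986), miR-152-3p (r = 0.981) and miR-574-3p (r = 0.962). miR-24-3p was closest to miR-152-3p (r = 0.986), miR-28a-5p (r = 0.972) and miR-99a-5p (r = 0.972). miR-152-3p and miR-28a-5p were thus among the nearest 3 for both a-cluster members and miR-24-3p.

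miR-23b-3p was closest to miR-30d-3p (r = 0.995), miR-455-5p (r = 0.991) and miR-30a-3p (r = 0.990), and miR-27b-3p to miR-30d-3p (r = 0.990), miR-30a-3p (r = 0.990) and the endothelial miR-126a-3p (r = 0.990). miR-27b-5p was closest to the muscle miRNAs miR-1a-3p (r = 0.986) and miR-133a-3p (r = 0.968) and to miR-145a-5p (r = 0.965). Between members, cluster partners were closer than paralogs, with r = 0.991 for miR-23a-3p and miR-27a-3p and r = 0.990 for miR-23b-3p and miR-27b-3p, against r = 0.916 for miR-23a-3p and miR-23b-3p and r = 0.925 for miR-27a-3p and miR-27b-3p.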

How the data were processed

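QIAseq miRNA libraries were sequenced on a NextSeq, and the authors deposited raw counts per mature miRNA, 1 table for each of 5 tissues, from the BaseSpace Small RNA application with mm10. Runs with few reads were rejected by the authors. Whether molecular identifiers were collapsed is not given in the sources used here. Every column mapped to a sample, and groups were taken from the labels.

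RPM were computed from the total count of a library. Where group ranges of RPM did not overlap, the share of all miRNAs that did the same was not counted. In each tissue, low rows were removed (filterByExpr, minimum count 10, total 15) and counts were fitted by group with voom, quantile normalization and limma 3.58.1 (R 4.3.3), with Benjamini-Hochberg adjustment over all miRNAs tested and a threshold of 0.05. The authors used limma and voom too, but on values scaled to RPM and then quantile normalized, and the filter and the adjustment were chosen here. Sham tissues were compared in 1 fit. Strain was compared in females and sex in C57 mice. Log2 ratios used counts plus 0.5 and an exact permutation test (scipy 1.17.1). Alternatives were TMM or library size scaling, edgeR 4.0.16 quasi-likelihood, DESeq2 1.42.0, other filters, a fold minimum of 2.25, letter A or B alone, males alone, an animal block and leaving out each library (between tissues, only each C3H sham WBC library). The scripts were tested on simulated data. All members and the other products of their hairpins are named, with 3 miRNAs of nearest pattern for each member. The members and lists were chosen with earlier results of these data known.

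Replicates are separate mice, but a mouse gave several tissues, so tissues are not independent of each other. Same-animal libraries of different tissues deviated together little, with median correlations from -0.05 to 0.08 over tissue pairs, where the pairing comes from the animal number in the labels. No pair of libraries agreed within sampling noise. Quantile normalization forces all libraries of a fit to one distribution, so a fitted difference follows rank, whereas RPM follows the share of reads.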

Additional observations from a re-analysis of the deposited data

Results flagged for a closer look

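Single libraries lay far from the rest of their group for 17 of 123 group and measure pairs tested with Dixon's criterion, where chance flags about 1 in 20 groups. C3H irradiated heart replicate 3, the library low in cardiac markers, gave 5 of these. It held 910 RPM of miR-23a-3p (1946 to 2636 RPM in the other 6), 4373 RPM of miR-24-3p (1816 to 2113 RPM) and 25561 RPM of miR-27b-3p (14443 to 16795 RPM), and its log2 ratios were -0.35 for miR-23a-3p to miR-23b-3p (-0.08 to 0.02) and -5.40 for miR-27a-3p to miR-27b-3p (-3.61 to -2.92). C3H irradiated heart replicate 1 had 31.9 RPM of miR-27b-5p (11.6 to 19.5 RPM in the others).

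In C3H irradiated brain, replicate 2 had 1536 RPM of miR-23b-3p (2159 to 2587 RPM in the others) and a log2 miR-27a-3p to miR-27b-3p ratio of -5.55 (-4.39 to -3.64). C57 irradiated brain replicate 2 had a log2 miR-23a-3p to miR-23b-3p ratio of -1.27 (-1.10 to -1.05). C3H sham lung replicate 2 had a log2 miR-27a-3p to miR-27b-3p ratio of -1.93 (-2.37 to -2.17).

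In blood, C3H sham WBC replicate 1 had 79.7 RPM of miR-27b-3p (37.5 to 49.0 RPM), C57 irradiated WBC replicate 2 had 147 RPM of miR-23b-3p (51.5 to 75.5 RPM) and C57 irradiated WBC replicate 4 had 654 RPM of miR-27a-3p (199 to 271 RPM). C3H sham RBC replicate 3 had 54.5 RPM of miR-23b-3p (21.6 to 36.7 RPM) and 46.3 RPM of miR-27a-3p (5.24 to 19.6 RPM). C57 irradiated RBC replicate 5 had 68.4 RPM of miR-23a-3p (37.7 to 46.0 RPM) and 46.4 RPM of miR-23b-3p (26.9 to 31.0 RPM).

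Opposite movement of every irradiated library relative to the sham mean was seen for miR-23b-3p in C57 lung and C57 brain (log2 RPM 0.24 and -0.22, apart by 0.46) and for miR-24-3p in C3H heart and C3H WBC (0.37 and -0.52, apart by 0.89). The C3H heart value of miR-24-3p includes C3H irradiated heart replicate 3 and was 0.21 without it. The difference between the tissues was not tested in either case.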

How the results depend on the processing

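Counts of members passing moved as follows. With irradiation, C3H lung went from 1 to 0 with letter A alone or the fold minimum. With TMM, edgeR or DESeq2 its count stayed at 1, but the member changed from miR-27b-3p to miR-23a-3p, of opposite sign. With library size the counts of C57 lung and C3H heart also stayed while a member changed. In C57 lung miR-24-3p took the place of miR-23b-3p, and in C3H heart miR-27b-3p that of miR-24-3p. C57 lung went from 2 to 1 with TMM, edgeR, DESeq2, males alone, letter A or letter B, and to 0 with the fold minimum. C3H heart went from 1 to 2 with TMM, edgeR or DESeq2 and to 0 with a loose filter, letter B alone or the fold minimum, and C3H RBC from 0 to 1 with edgeR or DESeq2. For strain, lung went from 1 to 2 with a loose filter, heart from 3 to 5 and WBC from 2 to 4 with library size, and RBC from 1 to 2 with DESeq2. Strain and sex in heart each went from 3 to 2 with TMM, edgeR or DESeq2, sex in heart also with a loose filter, and strain in WBC from 2 to 3 with DESeq2 or a loose filter. For sex in WBC, 0 became 1 with TMM, edgeR or DESeq2 and 2 with library size, and lung against heart went from 3 to 5 with library size and to 2 with TMM or a strict filter, which removed miR-27b-5p between tissues. Lung against brain went from 6 to 4 with library size or a strict filter and heart against brain from 6 to 5 and 4. Brain against WBC went from 5 to 6 with TMM, library size or a loose filter, and WBC against RBC from 5 to 4 with TMM or library size. Ratio calls went from 2 (miR-23a-3p to miR-23b-3p) and 1 (miR-27a-3p to miR-27b-3p) to 0 in letter A or letter B alone, where fewer samples remain. Leaving out each library gave 1 to 3 in C57 lung, 0 to 1 for strain in lung, 0 to 1 in C3H heart, 1 to 3 for sex in heart, 0 to 1 for sex in brain and in WBC, 1 to 2 for the first ratio and 0 to 1 for the second. The miR-23a-3p to miR-23b-3p call in C57 lung was lost without C57 irradiated lung replicate 1, 2, 3 or 4 (-0.31 to -0.22 over all left-out libraries), and the miR-27a-3p to miR-27b-3p call in C3H lung without C3H sham lung replicate 1, 2, 3, 4 or 6 (-0.48 to -0.34).

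Among members that passed under some setting, signs turned for miR-23a-3p in C3H heart with letter B alone (0.031), for miR-27b-3p by sex in heart (0.12 TMM, 0.11 edgeR, 0.021 DESeq2), for lung minus heart of miR-23b-3p (-0.083) and miR-24-3p (-0.20) with a strict filter and of miR-27a-3p with library size (0.25), and with library size for miR-27b-3p in lung minus brain (-0.11) and miR-23b-3p in heart minus brain (-0.22). In brain minus WBC, TMM, library size and the strict filter gave 0.48, 1.82 and 1.05 for miR-23a-3p, 0.30, 1.64 and 0.95 for miR-24-3p and 1.06, 2.40 and 2.02 for miR-27a-3p, and miR-27b-5p gave 2.84 with TMM, 4.20 with library size and 1.01 with the loose filter. WBC minus RBC of miR-23b-3p was 0.084 with TMM and 0.32 with library size. The causes were not tested. The animal as a replicate block (pairing by animal number) changed no call between tissues, with lung minus heart of miR-27b-3p at -0.95 and WBC minus RBC of miR-23a-3p at 1.47. Of the values recomputed with all other alternatives, 471 kept direction and side of the threshold (counts within 1.5 times), 30 counts moved further, 26 values gained and 31 lost their call and 23 changed sign. With a library left out (between tissues, a C3H sham WBC library only), 1343 kept both, 32 counts moved, 4 values gained and 41 lost their call. These include letter A alone without C3H irradiated heart replicate 3, chosen after seeing the data, which left 0 calls in C3H heart.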

Other observations

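Within strains of sham mice, the log2 ratio of the paralogs miR-23a-3p and miR-23b-3p had the smallest spread of the pairs of members in heart (SD 0.10) and in lung (SD 0.12), although they come from different chromosomes. It was not the smallest in brain (SD 0.19), where miR-24-3p and miR-27b-3p had an SD of 0.14. Whether reads were fully divided between miR-23a-3p and miR-23b-3p was not checked. The cluster partners miR-23a-3p and miR-27a-3p had an SD of 0.37 in lung and 0.32 in heart, and miR-23b-3p and miR-27b-3p an SD of 0.15 in lung and 0.24 in heart. In RBC the order was reversed, with 0.73 for miR-23a-3p and miR-23b-3p and 0.31 for miR-23a-3p and miR-27a-3p. Each SD is the root mean square of the C3H and C57 SDs, over 23 libraries in each tissue, and still takes in sex and letter. No test was run.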
